A study of Mus musculus with 21 samples.

Results

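The transcripts described here encode the receptors for interleukin 12 (IL-12) and interleukin 23 (IL-23) and the kinases attached to them. They were 6 of the 23415 rows of a gene expression table from cultured mouse CD4 T cells: the receptor chains Il12rb1, Il12rb2 and Il23r, an eGFP reporter row of the Il23r locus, and the kinases Jak2 and Tyk2. The rows, listed as IL12RB1, IL12RB2, IL23R, EGFP_IRES_IL23R, JAK2 and TYK2, were taken by name, and all 6 were among the 9592 rows that passed the filter on low values and were tested.

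Both cytokines are heterodimers that share one subunit, and both receptors share one chain, the product of Il12rb1. Il12rb2 encodes the chain that completes the IL-12 receptor, and Il23r the chain that completes the IL-23 receptor. The kinase Tyk2 is bound by the shared chain and Jak2 by the cytokine-specific chains; IL-12 acts mainly through Stat4 and drives interferon gamma production in Th1 cells, while IL-23 acts largely through Stat3 and sustains IL-17 production in Th17 cells.

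The study sorted naive CD4 T cells from spleen and lymph nodes of mice with 1 wild-type Il23r allele and 1 allele in which eGFP, joined by an internal ribosome entry site, replaces a functional receptor. All groups carried this genotype, so no group had 2 intact copies of Il23r, and eGFP served as a marker of Il23r expression. Cells were stimulated for 5 days through CD3 and CD28 with IL-12 (20 ng/ml), with IL-12 and IL-21 (20 ng/ml each), with IL-1b (20 ng/ml), IL-6 (25 ng/ml) and IL-23 (20 ng/ml), or with TGF-b (2 ng/ml) and IL-6 (25 ng/ml). They were then sorted into cells with eGFP (GFPpos) and without it (GFPneg), except that the IL-12 culture gave GFPneg cells only, which made 7 groups of 3 libraries. The ages and sexes of the mice are not given in the sources used here. Nothing said that replicates came from separate mice or cultures, so the spread behind the p-values may be a technical one.

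Expression was measured by full-length bulk RNA sequencing (SMART-Seq2) and given as TPM, each transcript's share of its library after correction for transcript length. Of the 21 libraries, 16 had at least 7000 genes at a TPM of at least 1 and were used. The other 5 had between 190 and 5608 such genes. Both gates of the IL-1b+IL-6+IL-23 culture and the GFPpos cells with IL-12+IL-21 kept 3 libraries each. The GFPneg cells of the other cultures kept 2 each, and the GFPpos cells with TGFb+IL-6 kept 1, replicate 1, whose value has no SD and is assumed in the fit to vary like the other groups. The 8 CD4 T cell markers checked were all present, summing to between 1620 and 3180 TPM, against at most 1.42 for myeloid, 2.96 for natural killer and 1.35 for gamma-delta T cell markers. The 2 CD8 T cell markers summed to between 4.99 and 17.5 TPM, nearly all from Cd8b1, with Cd8a at most 0.29 TPM. The sum for 6 B cell markers reached 24 TPM, nearly all from Ebf1, with Pax5 listed at 0 in all used libraries.

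Il12rb2, the IL-12 receptor chain, split the cultures into those with and those without IL-12. Its levels ran from 114.03 to 186.71 TPM in the 7 libraries with IL-12 and from 4.74 to 27.67 TPM in the 9 libraries with IL-6. No library of one kind overlapped the other. Every culture without IL-12 had IL-6 and none with IL-12 did, so presence of IL-12 and absence of IL-6 cannot be told apart. In its library, Il12rb2 ranked at the 90th to 93.8th percentile of genes at or above 1 TPM with IL-12, and at the 41.5th to 75.4th percentile without it.

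Among GFPpos cells, Il12rb2 stood at 186.71, 161.5 and 185.29 TPM with IL-12+IL-21 (178 ± 14.2, SD, n = 3). The IL-1b+IL-6+IL-23 culture gave 20.85, 22.27 and 27.67 TPM (23.6 ± 3.6, SD, n = 3), and there were 15.51 TPM in the single TGFb+IL-6 library. The IL-12+IL-21 cells were therefore the high group and the other cultures did not reach them. Relative to IL-12+IL-21, the log2 change was -2.87 ± 0.23 (SE; limma adjusted p = 7.53e-07) with IL-1b+IL-6+IL-23. The corresponding fall with TGFb+IL-6 was -3.43 ± 0.33 (limma adjusted p = 7.14e-06). Log2 changes were taken between values of log2(TPM + 1), so those of weakly expressed genes come out too small. In these comparisons 4.96% and 4.91% of all genes tested passed the threshold, an adjusted p under 0.05, and 2 of the 6 members did in each. A lower level in bulk RNA can mean fewer cells with the transcript or less of it per cell, which cannot be told apart here.

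GFPneg cells showed the same order of cultures. Il12rb2 was at 114.03 and 130.56 TPM with IL-12 (122 ± 11.7, SD, n = 2) and at 183.66 and 115.86 TPM with IL-12+IL-21 (150 ± 47.9, SD, n = 2). The IL-1b+IL-6+IL-23 culture had 16.16, 12.92 and 14.68 TPM (14.6 ± 1.62, SD, n = 3) and the TGFb+IL-6 culture 4.74 and 9.82 TPM (7.28 ± 3.59, SD, n = 2). The IL-12 cultures overlapped each other, and neither overlapped the rest. Against IL-12 alone, the log2 change was -2.99 ± 0.26 with IL-1b+IL-6+IL-23 (limma adjusted p = 1.91e-06) and -3.96 ± 0.28 with TGFb+IL-6 (limma adjusted p = 1.33e-07). Against IL-12+IL-21, it was -3.24 ± 0.26 (limma adjusted p = 1.73e-06) and -4.22 ± 0.28 (limma adjusted p = 9.21e-08) for the same pair of cultures. Across all genes 7.01%, 20.9%, 3.41% and 6.82% passed in these 4 comparisons, and the members that passed numbered 3, 1, 1 and 3.

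The 6 falls of Il12rb2 between a culture with IL-12 and one without it were called in each fit that left out 1 library and under every other setting tried except the fit of all 21 libraries, where their adjusted p lay between 0.245 and 1. In that fit the GFPpos falls were -2.87 in the IL-1b+IL-6+IL-23 culture, and -3.33 with TGFb+IL-6. The GFPneg falls were -0.67 and -2.64 against IL-12, and -3.47 and -5.44 against IL-12+IL-21, for the same pair of cultures. Without IL-12, GFPneg cells with TGFb+IL-6 were lower still than those with IL-1b+IL-6+IL-23, with a log2 change of -0.98 ± 0.26 (limma adjusted p = 0.0178). That call was lost without replicate 1 of the TGFb+IL-6 GFPneg libraries (-0.52, adjusted p = 0.256), without replicate 1 of the IL-1b+IL-6+IL-23 GFPneg libraries (adjusted p = 0.0554), after median-ratio scaling (-0.71, adjusted p = 0.0931), in a fit of only the libraries compared (adjusted p = 0.0678) and with all 21 libraries (adjusted p = 0.519). In that comparison 15.4% of all genes tested passed, against 4 of the 6 members.

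**Figure D1:**
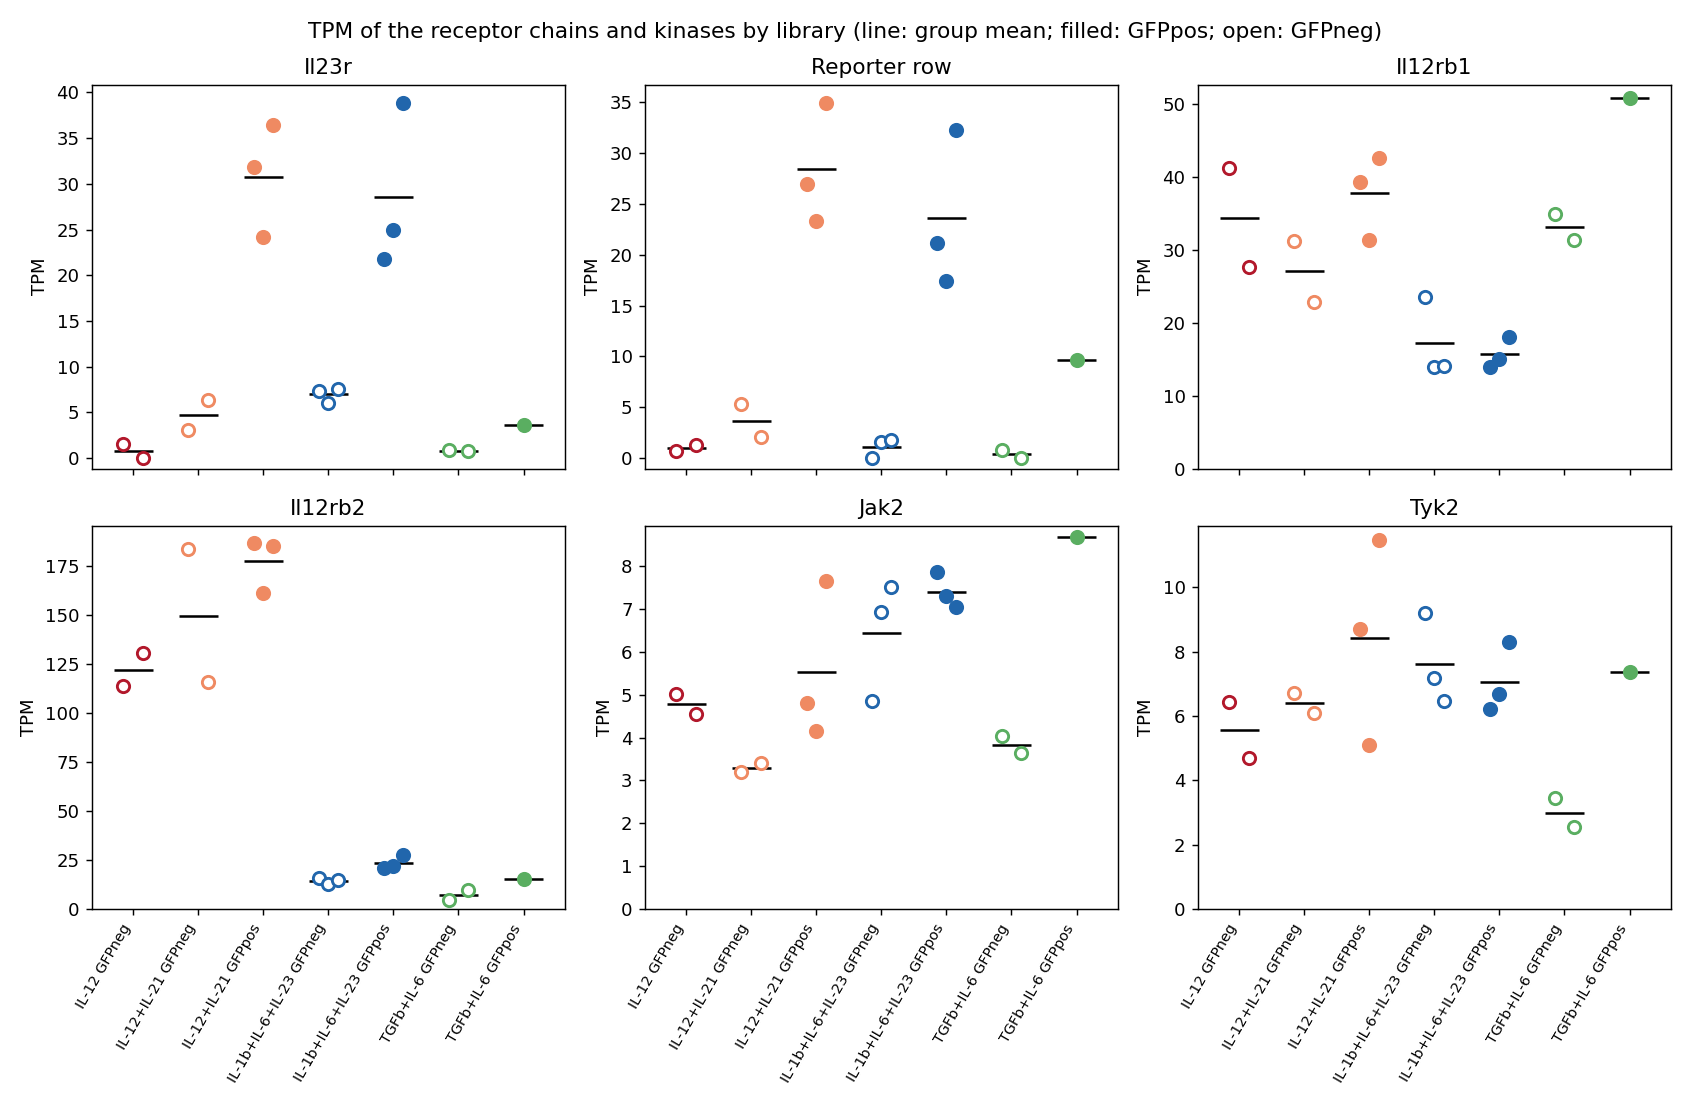
TPM (vertical axes, each on its own linear scale) of the 6 members in the 16 used libraries, by group; filled points are GFPpos, open points GFPneg, and horizontal lines are group means. Il12rb2 lies between 114.03 and 186.71 TPM in the IL-12 cultures and at or below 27.67 TPM elsewhere, while Il12rb1 is lowest in the IL-1b+IL-6+IL-23 culture.

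Il12rb1, the chain used by both receptors, varied less and in another order. Its levels spanned 13.92 to 50.84 TPM over the 16 libraries, and the IL-1b+IL-6+IL-23 culture was lowest. Its GFPpos cells had 13.92, 15.06 and 18.02 TPM (15.7 ± 2.12, SD, n = 3), below the 39.42, 31.44 and 42.6 TPM with IL-12+IL-21 (37.8 ± 5.75, SD, n = 3) and the 50.84 TPM of the TGFb+IL-6 library. The 3 groups did not overlap.

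With IL-1b+IL-6+IL-23, the GFPpos level of Il12rb1 was lower than with IL-12+IL-21 by a log2 change of -1.22 ± 0.23 (limma adjusted p = 0.00424). TGFb+IL-6 exceeded IL-1b+IL-6+IL-23 by 1.65 ± 0.33 (limma adjusted p = 0.00641), in a comparison where 5.39% of all genes and 2 of the 6 members passed. Both calls were kept in every fit that left out 1 library. With all 21 libraries the former was no longer called (adjusted p = 1) and the latter turned to -1.11 (adjusted p = 0.623).

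Among GFPneg cells, Il12rb1 was at 41.24 and 27.62 TPM with IL-12 and at 31.24 and 22.94 TPM with IL-12+IL-21. The TGFb+IL-6 libraries had 34.9 and 31.4 TPM, and those with IL-1b+IL-6+IL-23 had 23.6, 13.94 and 14.06 TPM. Replicate 1 of the last group lay within the IL-12+IL-21 range, and the other 2 lay below every other GFPneg group. The IL-1b+IL-6+IL-23 group was lower than IL-12 (log2 change -0.98 ± 0.26, limma adjusted p = 0.0331), and TGFb+IL-6 was higher than IL-1b+IL-6+IL-23 (0.95 ± 0.26, limma adjusted p = 0.0223).

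The GFPneg calls for Il12rb1 rested on few libraries. The difference from IL-12 was not called without IL-12 GFPneg replicate 2 (adjusted p = 0.269), without IL-1b+IL-6+IL-23 GFPneg replicate 2 (0.108), without its replicate 3 (0.0995), without the filter (0.0594) or in a fit of only the libraries compared (0.106). The difference from TGFb+IL-6 was not called without either TGFb+IL-6 GFPneg library (adjusted p = 0.123 without replicate 1 and 0.0969 without replicate 2) or without IL-1b+IL-6+IL-23 GFPneg replicate 2 (0.0667) or 3 (0.0762). With all 21 libraries both turned direction, to 0.015 (adjusted p = 1) and -0.75 (adjusted p = 0.724). The IL-1b+IL-6+IL-23 libraries also had the lowest summed CD4 T cell markers, 1620 to 2180 TPM against 2230 to 3180 TPM elsewhere, and a B cell marker sum of 11.2 to 24 TPM against 0.91 to 16.4 TPM elsewhere; the part of these in the difference of Il12rb1 was not tested.

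Il23r and the reporter row followed the sort, so their difference between gates is a description of the gate. Within each culture that had both gates, every GFPpos library had more of both rows than every GFPneg library. Between cultures, the GFPpos levels of Il23r fell into a high pair and a low culture. They were 31.8, 24.16 and 36.4 TPM with IL-12+IL-21 (30.8 ± 6.18, SD, n = 3), 21.72, 24.95 and 38.88 TPM with IL-1b+IL-6+IL-23 (28.5 ± 9.12, SD, n = 3), and 3.57 TPM in the TGFb+IL-6 library.

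The first 2 cultures overlapped, with a log2 change of -0.13 ± 0.34 between them (limma adjusted p = 0.905), whereas the mean TPM of Il12rb2 differed 7.54-fold between the same libraries. TGFb+IL-6 was below both, by -2.78 ± 0.47 relative to IL-12+IL-21 (limma adjusted p = 0.00165) and -2.65 ± 0.47 relative to IL-1b+IL-6+IL-23 (limma adjusted p = 0.00253). These calls rest on 1 TGFb+IL-6 library. With a pseudocount of 0.1 they were -3.05 (adjusted p = 0.0998) and -2.92 (adjusted p = 0.113), and with all 21 libraries -1.36 (adjusted p = 0.362) and -1.23 (adjusted p = 0.461).

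The reporter row in GFPpos cells was at 26.96, 23.29 and 34.97 TPM with IL-12+IL-21 and at 21.18, 17.45 and 32.28 TPM in the IL-1b+IL-6+IL-23 culture. The TGFb+IL-6 library had 9.64 TPM, the lowest of the 7 GFPpos libraries, as for Il23r. Its differences from the other cultures, -1.45 ± 0.56 and -1.17 ± 0.56, did not pass (limma adjusted p = 0.184 and 0.302). The former passed with all 21 libraries (-3.72, adjusted p = 0.0259), with a pseudocount of 5 (adjusted p = 0.0324) and in a fit of only the libraries compared (adjusted p = 0.0261), and in none of its other 7 alternatives. The reporter reading per Il23r reading was between 0.699 and 0.975 in the 6 GFPpos libraries of the first 2 cultures and 2.7 in the TGFb+IL-6 library. The sources used here do not say how reads were assigned between the reporter row and Il23r, so these 2 rows may share reads.

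GFPneg cells were not free of Il23r in all cultures. They had 7.33, 6.02 and 7.56 TPM when given IL-1b+IL-6+IL-23 and 3.04 and 6.36 TPM with IL-12+IL-21. With TGFb+IL-6 the values were 0.87 and 0.73 TPM, and with IL-12 alone 1.5 TPM in one library and listed at 0 in the other, where a 0 can be a failed estimate. The former pair of cultures lay above the latter pair in every library, and above the 3.57 TPM of GFPpos TGFb+IL-6 in 4 of 5.

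Relative to IL-12 alone, GFPneg Il23r was higher with IL-1b+IL-6+IL-23 by 2.33 ± 0.37 (limma adjusted p = 0.000902). With TGFb+IL-6 it was lower than with IL-1b+IL-6+IL-23, by -2.14 ± 0.37 (limma adjusted p = 0.000959). Both calls were kept in each fit that left out 1 library and lost only with all 21 libraries (adjusted p = 1 and 0.519). The addition of IL-21 to IL-12 came with a log2 change of 1.79 ± 0.41, which did not pass (limma adjusted p = 0.0592); 0 of the 6 members and 0.761% of all genes passed in that comparison. It passed after median-ratio scaling (1.87, adjusted p = 0.0356) and without IL-12 GFPneg replicate 2 (2.45, adjusted p = 0.0139).

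TGFb+IL-6 had less Il23r than IL-12+IL-21 in GFPneg cells, -1.60 ± 0.41 (limma adjusted p = 0.0256), and less of the reporter row, -1.73 ± 0.49 (limma adjusted p = 0.0422). The Il23r call was lost without TGFb+IL-6 GFPneg replicate 1 (adjusted p = 0.0834) or 2 (0.15) or IL-12+IL-21 GFPneg replicate 2 (0.188). The reporter call was lost without IL-12+IL-21 GFPneg replicate 1 (0.39) or TGFb+IL-6 GFPneg replicate 2 (0.337). Both were lost at either other pseudocount, without the filter and with all 21 libraries. The GFPneg order of the reporter row differed from that of Il23r: it was listed at 0, 1.53 and 1.74 TPM in the IL-1b+IL-6+IL-23 culture, 5.29 and 2.04 TPM with IL-12+IL-21, 0.7 and 1.23 TPM with IL-12, and 0.75 TPM and 0 with TGFb+IL-6. The differences of the reporter row for IL-12+IL-21 over IL-12 (1.17 ± 0.49) and for IL-1b+IL-6+IL-23 relative to IL-12+IL-21 (-1.20 ± 0.44) did not pass (limma adjusted p = 0.291 and 0.22).

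**Figure D2:**
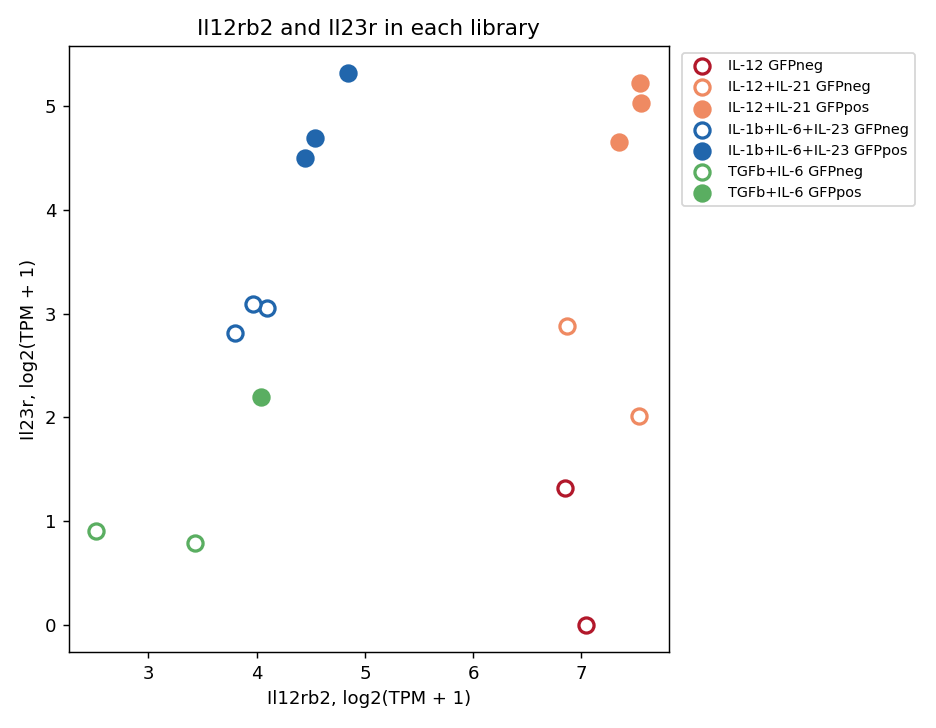
Il12rb2 (horizontal) and Il23r (vertical), both as log2(TPM + 1), in the 16 used libraries; colours are cultures, filled points GFPpos and open points GFPneg. The cultures with IL-12 lie to the right at every level of Il23r, and the GFPpos libraries with IL-12+IL-21 sit at the same height as those with IL-1b+IL-6+IL-23, all at 21.72 to 38.88 TPM of Il23r.

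Il12rb2 and Il23r are neighbours in the genome. In GRCm38 with GENCODE M21, Il12rb2 lies at chr6:67291318-67376188 and Il23r at chr6:67422932-67491855, both on the minus strand. The Il12rb2 start site is 46743 bases from the 3′ end of Il23r, and the 4 annotated genes between them are processed pseudogenes. The others lie apart: Il12rb1 at chr8:70808449-70821424 (plus strand), Jak2 at chr19:29251828-29313080 (plus strand) and Tyk2 at chr9:21104068-21131243 (minus strand).

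The 250 bases before the start sites of this pair are shown because the genes are adjacent and their levels across cultures differed. The windows are from RefSeq (GRCm38.p6), chr6:67376189-67376438 for Il12rb2 and chr6:67491856-67492105 for Il23r, written on the minus strand, the strand of both genes, from 5′ to 3′. Capitals mark matches, on either strand, to 4 motifs searched after the sequences had been seen: TTCNNNGAA (bound by STAT proteins), TCACAC (the core bound by T-box factors such as T-bet), AGGTCA (the core bound by ROR receptors) and TGANTCA (AP-1). No match overlapped another.
Il12rb2: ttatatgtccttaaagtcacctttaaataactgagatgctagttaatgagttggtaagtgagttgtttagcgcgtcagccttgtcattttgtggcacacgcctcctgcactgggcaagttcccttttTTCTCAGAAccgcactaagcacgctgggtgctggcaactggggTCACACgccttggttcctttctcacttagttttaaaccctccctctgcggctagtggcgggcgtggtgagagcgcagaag
Il23r: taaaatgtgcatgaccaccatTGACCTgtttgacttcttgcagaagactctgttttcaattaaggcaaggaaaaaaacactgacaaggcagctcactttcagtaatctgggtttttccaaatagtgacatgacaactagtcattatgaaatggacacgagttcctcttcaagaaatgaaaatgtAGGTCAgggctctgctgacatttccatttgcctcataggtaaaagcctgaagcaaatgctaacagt

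The Il12rb2 window held 1 STAT match, TTCTCAGAA, which begins 123 bases before the start site, and 1 T-box core, 80 bases before it. The Il23r window held 2 ROR cores, which begin 229 bases before the start site (as TGACCT) and 66 bases before it. Neither held an AP-1 match. Of 32851 RefSeq promoter windows of this length, 7.02% held the STAT motif, 12.3% the T-box core, 14% the ROR core and 6.75% the AP-1 motif. Of the 5 member genes, 4 were matched in the promoter table. The windows of Jak2 and Tyk2 held none of the 4 motifs; GC content was 80.8% for Jak2, 57.2% for Tyk2, 50% for Il12rb2 and 39.6% for Il23r. A match is a description of the letters and not of binding.

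Because TPM is corrected for length, the chains can be set against each other within a library. These ratios are of transcripts, and were not tested. They used the Il23r row alone, without the reporter row of the other Il23r allele. That row was at 23.29 to 34.97 TPM in GFPpos cells with IL-12+IL-21 and 17.45 to 32.28 TPM with IL-1b+IL-6+IL-23. Adding it can raise the Il23r ratios and lower the Il12rb2 shares. In the 7 libraries with IL-12, Il12rb2 was the most abundant chain, at 2.77 to 5.88 times Il12rb1. In the IL-1b+IL-6+IL-23 culture it was at 1.48 to 1.54 times Il12rb1 in GFPpos and 0.685 to 1.04 times in GFPneg cells, and at 0.136 to 0.313 times with TGFb+IL-6. So the shared chain was the most abundant of the 3 in all TGFb+IL-6 libraries and in none with IL-12.

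The Il23r row taken alone exceeded Il12rb1 only in GFPpos cells with IL-1b+IL-6+IL-23, among the 16 libraries, at 1.56 to 2.16 times. The ratio was 0.768 to 0.854 in GFPpos cells with IL-12+IL-21, where the levels of Il23r overlapped with those. It was 0.0702 in GFPpos cells with TGFb+IL-6. The Il23r and reporter rows together also exceeded Il12rb1 in GFPpos cells with IL-12+IL-21. Of the Il12rb2 and Il23r transcripts together, Il12rb2 made up 45.9% ± 3.86 (SD, n = 3) in GFPpos cells given IL-1b+IL-6+IL-23 and 85.3% ± 1.7 (SD, n = 3) in GFPpos cells with IL-12+IL-21. Its share was 67.7% ± 1.47 (SD, n = 3) in GFPneg cells with IL-1b+IL-6+IL-23, 96.6% ± 2.55 (SD, n = 2) in GFPneg cells with IL-12+IL-21 and 98.7% and 100% with IL-12. The GFPpos TGFb+IL-6 library had 81.3%, at much lower levels of both.

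Il12rb1 exceeded the sum of Il12rb2 and Il23r by 20.8 to 31.8 TPM in the 3 TGFb+IL-6 libraries. It exceeded that sum by 0.11 TPM in replicate 1 of the GFPneg cells given IL-1b+IL-6+IL-23 and was below it in the other 12 libraries, with differences down to -179 TPM.

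**Figure D3:**
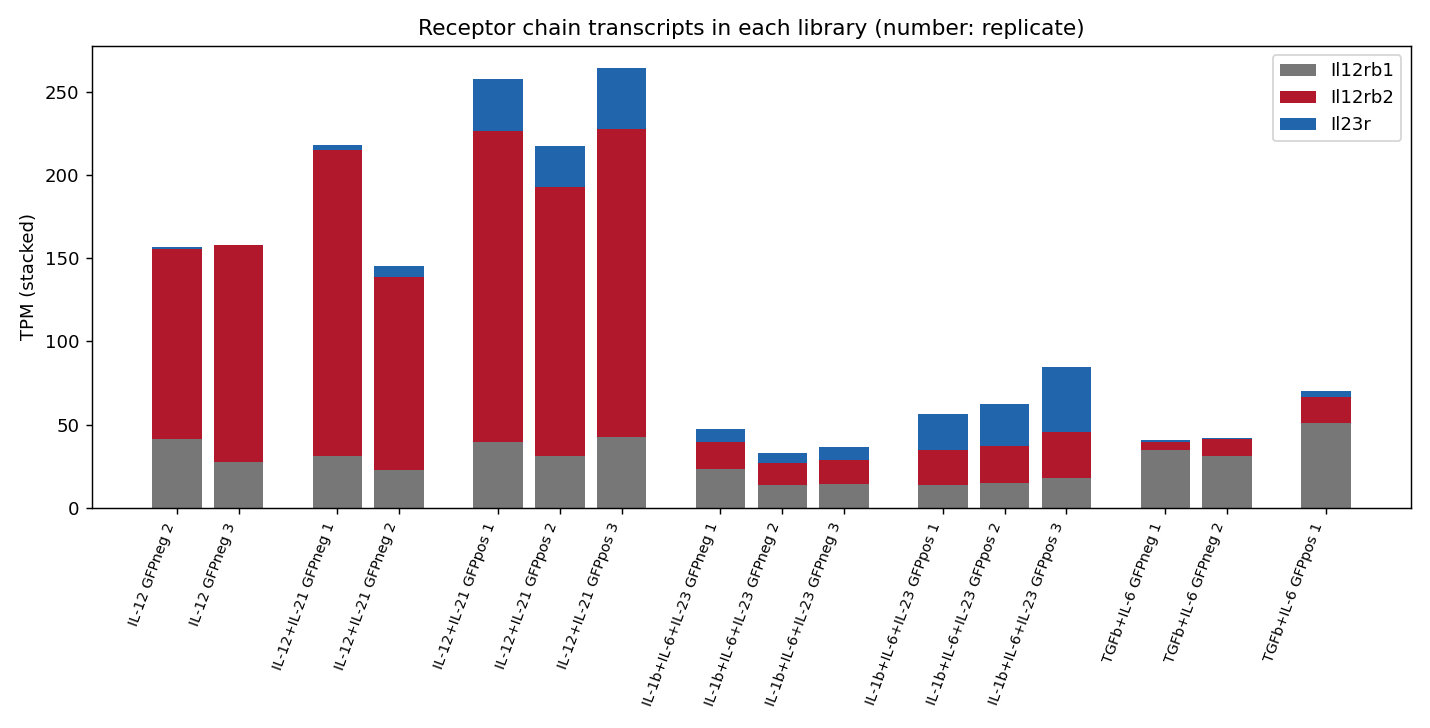
Stacked TPM (vertical axis from 0) of Il12rb1, Il12rb2 and Il23r in each used library, labelled by group and replicate number. Il12rb2 makes up most of the bar in the 7 libraries with IL-12, Il12rb1 most of the bar in the 3 libraries with TGFb+IL-6, and Il23r exceeds Il12rb1 in the 3 GFPpos libraries with IL-1b+IL-6+IL-23.

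The kinases were expressed at low levels in every used library. Jak2 was between 3.2 and 8.67 TPM and Tyk2 between 2.54 and 11.47 TPM, below Il12rb1 in each of the 16 libraries. Jak2 was at 5.01 and 4.54 TPM with IL-12, at 3.2 and 3.4 TPM in GFPneg and 4.8, 4.16 and 7.65 TPM in GFPpos cells with IL-12+IL-21. The GFPneg cells with IL-1b+IL-6+IL-23 had 4.85, 6.93 and 7.51 TPM, and the GFPpos cells 7.87, 7.29 and 7.05 TPM. TGFb+IL-6 gave 4.03 and 3.64 TPM in GFPneg cells and 8.67 TPM in the GFPpos library. Ordered by mean, the 4 middle groups, from GFPpos cells with IL-1b+IL-6+IL-23 (7.4 ± 0.422, SD, n = 3) down to IL-12 (4.78 ± 0.332, SD, n = 2), each overlapped the next, and Jak2 passed in none of the 9 comparisons between cultures (limma, smallest adjusted p = 0.146, log2 changes from -0.60 to 0.77).

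Tyk2 was at 6.45 and 4.71 TPM with IL-12, at 6.73 and 6.1 TPM in GFPneg and 8.7, 5.11 and 11.47 TPM in GFPpos cells with IL-12+IL-21. The GFPneg cells with IL-1b+IL-6+IL-23 had 9.19, 7.18 and 6.46 TPM, and the GFPpos cells 6.23, 6.69 and 8.29 TPM. TGFb+IL-6 gave 3.44 and 2.54 TPM in GFPneg cells, the lowest 2 of the 16 libraries, and 7.36 TPM in the GFPpos library. Every group overlapped the next in the order of means, except the TGFb+IL-6 GFPneg cells, which lay below all others. Of its 9 comparisons between cultures 1 passed: GFPneg cells with TGFb+IL-6 were below those with IL-1b+IL-6+IL-23, by -1.11 ± 0.30 (limma adjusted p = 0.0198). That call was lost without TGFb+IL-6 GFPneg replicate 2 (adjusted p = 0.182), without IL-1b+IL-6+IL-23 GFPneg replicate 1 (0.0685) and with all 21 libraries (0.519).

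The TGFb+IL-6 GFPneg libraries also had 42.05% and 42.64% of their TPM in cytosolic ribosomal protein genes, the highest of the 16 used, and the median log2 change of all genes against IL-1b+IL-6+IL-23 was -0.23 in GFPneg cells. After median-ratio scaling the change of Tyk2 was -0.88 (limma adjusted p = 0.0117). The ratio of Jak2 to Tyk2 was 0.475 to 0.964 in the libraries with IL-12, 0.528 to 1.26 in those given IL-1b+IL-6+IL-23 and 1.17 to 1.43 with TGFb+IL-6.

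**Figure D4:**
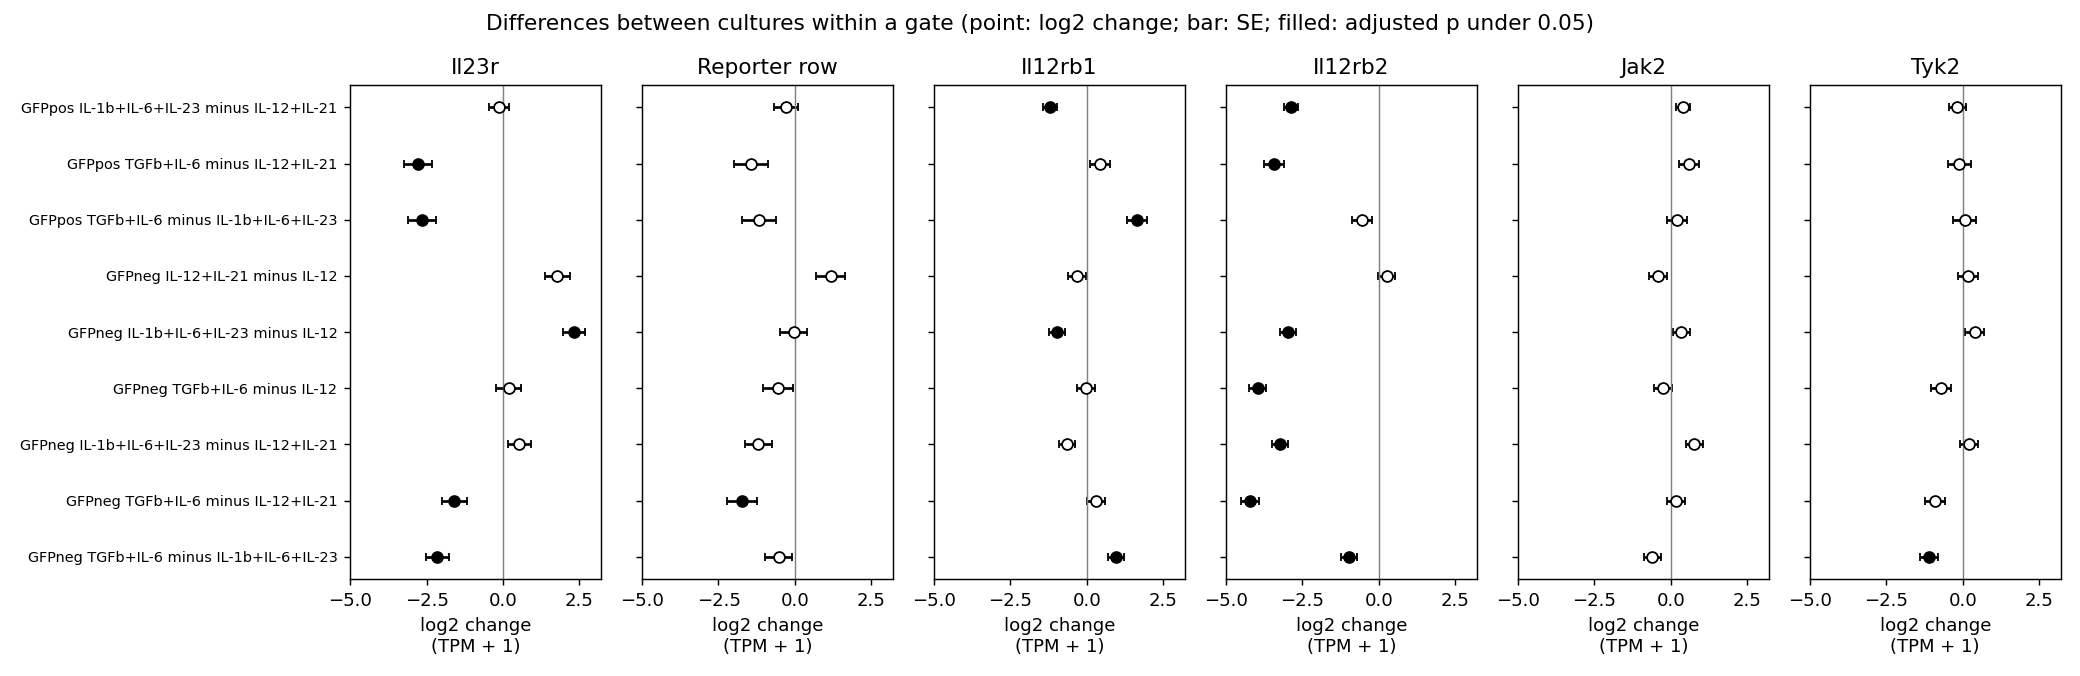
Log2 change (horizontal axis, on the log2(TPM + 1) scale) of each member in the 9 comparisons between cultures within a gate; bars are SE and filled points have a limma adjusted p under 0.05. Il12rb2 has filled points in every comparison of a culture with IL-12 against one without it, and Jak2 has none.

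Over both gates, 18 member tests between cultures passed: 6 of 18 in GFPpos and 12 of 36 in GFPneg cells, in comparisons where 0.761% to 20.9% of all genes passed. For the 4 members that were not used in the sort, 0 of 12 tests of GFPpos against GFPneg cells within a culture passed, where the share of all genes that passed was 0.427% with IL-1b+IL-6+IL-23, 0.323% with TGFb+IL-6 and 0.156% with IL-12+IL-21. At an unadjusted p under 0.05, 4 of the 12 did: 0 of 4 with IL-12+IL-21, 3 of 4 with TGFb+IL-6 and 1 of 4 in the IL-1b+IL-6+IL-23 culture, where 14.5%, 16.9% and 8.43% of all genes did. The gates did not overlap, with GFPpos higher, for Il12rb1 and Jak2 with IL-12+IL-21, for Il12rb2 in the IL-1b+IL-6+IL-23 culture, and for all 4 with TGFb+IL-6, where 1 library stands against 2. Of all genes 26.3%, 9.81% and 63.7% were separated in the same way. The differences of at least 1 on the log2 scale were all with TGFb+IL-6, where the GFPpos library exceeded both GFPneg libraries for Il12rb2 (1.07 ± 0.35, limma adjusted p = 0.172), Jak2 (1.00 ± 0.36, 0.198) and Tyk2 (1.08 ± 0.40, 0.209). The median gene was itself higher by 0.37 there, and median-ratio scaling left 0.63 for Il12rb2, 0.60 for Jak2 and 0.69 for Tyk2. Without TGFb+IL-6 GFPneg replicate 1 the value of Il12rb2 was 0.61, and with all 21 libraries it was 2.16, while Jak2 and Tyk2 turned to -0.14 and -0.05.

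Averaged over the 3 cultures, in a comparison added after the data had been seen, Il12rb2 was higher in GFPpos cells by 0.67 ± 0.16 (limma adjusted p = 0.0264) and Jak2 by 0.59 ± 0.17 (limma adjusted p = 0.0462). In it 7.39% of all genes passed and the median gene was itself higher by 0.23, a shift that median-ratio scaling reduced to 0.02. After that scaling neither was called: Il12rb2 had 0.40 (adjusted p = 0.195) and Jak2 0.35 (adjusted p = 0.165). The Il12rb2 call was also lost without TGFb+IL-6 GFPneg replicate 1 (0.0571) or IL-12+IL-21 GFPneg replicate 2 (0.0728) and with all 21 libraries (0.905), and the Jak2 call in 14 of 19 alternatives. Il12rb1 and Tyk2 were not called (adjusted p = 0.207 and 0.16). The GFP difference of these 4 members was also compared between cultures, and 0 of 12 such tests passed (limma adjusted p from 0.489 to 0.995), where 0%, 0.0104% and 0.0834% of all genes passed; at an unadjusted p under 0.05, 1 of the 12 did, against 4.94%, 4.33% and 9.37% of all genes.

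The remaining genes of the pathway were read from a list of 45, of which 38 passed the filter. The ligand genes were near the floor: Il12a reached 0.68, Il12b 0.26, Il27 1.9 and Il23a 2.51 TPM at most, while Ebi3, a subunit of other cytokines of this family, was at 11.3 to 33 TPM. The other Janus kinases, Jak1 (11.7 to 30 TPM) and Jak3 (25.1 to 62.6 TPM), were above Jak2 and Tyk2, and neither passed in any of the 12 comparisons (limma).

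GFPpos cells given IL-1b+IL-6+IL-23 had 7 of the 38 genes higher and 10 lower than those given IL-12+IL-21, with a median log2 change of -0.19 against -0.16 over all genes, of which 4.96% passed. Of 9 genes tested that respond to IL-12, 7 fell and 0 rose, and of 8 that respond to IL-23, 6 rose and 0 fell. Ifng, which encodes interferon gamma, was at 233 to 450 TPM with IL-12+IL-21 and at most 0.3 TPM with IL-1b+IL-6+IL-23, where 2 of 3 libraries listed it at 0 (log2 change -8.18 ± 0.30, limma adjusted p = 5.83e-11). Il17f, an IL-17 family cytokine, was at 3.24 to 6.19 TPM with IL-12+IL-21 and at 6082 to 9681 TPM with IL-1b+IL-6+IL-23 (10.47 ± 0.30, limma adjusted p = 3.63e-12). Il17a went from 0.46 to 2.47 TPM up to 615 to 1199 TPM, and Batf, a transcription factor needed by Th17 cells, from 98.4 to 146 TPM up to 447 to 511 TPM. So the 2 GFPpos populations with overlapping levels of Il23r differed in Il12rb2, Ifng and the IL-17 genes.

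With TGFb+IL-6 rather than IL-12+IL-21, GFPpos cells had 4 of the 38 genes higher and 10 lower (median -0.45, against -0.07 over all genes, of which 4.91% passed). Il17f stood at 9497 and Il17a at 876 TPM in the TGFb+IL-6 library, where Ifng was listed at 0 and Gadd45g, a gene induced by IL-12, was at 5.53 TPM against 75.1 to 110 TPM. Of the 5 signal transducers, Stat4 and Stat5a were lower and none higher.

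The cultures with IL-6 differed from each other in Batf, Stat5a, Socs2 and Il22, among other genes of the list. In GFPpos cells 2 of the 38 genes were higher and 5 lower with TGFb+IL-6 than with IL-1b+IL-6+IL-23 (median -0.13, against 0.09 over all genes, of which 5.39% passed), and in GFPneg cells 6 were higher and 11 lower (median -0.37, against -0.23, with 15.4% passing). Stat5a, a signal transducer of several cytokine receptors, was at 21.6 to 27.9 TPM against 222 to 319 TPM in GFPneg cells (-3.30 ± 0.24, limma adjusted p = 2.19e-07) and at 43.9 against 203 to 257 TPM in GFPpos cells (-2.41 ± 0.31, limma adjusted p = 1.44e-04). Socs2, a feedback inhibitor of cytokine signalling, went the other way, at 95.2 and 99.6 TPM against 9.35 to 12.2 TPM in GFPneg cells (3.09 ± 0.25, limma adjusted p = 4.19e-07). Il22 is an IL-23 response gene whose reads may be shared with a close copy. It was at 80.3 to 110 TPM in GFPneg cells given IL-1b+IL-6+IL-23 and at most 0.94 TPM with TGFb+IL-6. Batf, the called gene with the smallest p there, was also lower with TGFb+IL-6 (-2.717 ± 0.185, limma adjusted p = 1.2e-07). Il22 and Batf were lower in GFPpos cells with TGFb+IL-6 as well.

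In GFPneg cells, 4 of the 38 genes were lower and 0 higher with IL-12+IL-21 than with IL-12 (median -0.08, against -0.09 over all genes, of which 0.761% passed). Ifng was at 1121 and 1474 TPM with IL-12 and at 131 and 231 TPM with IL-12+IL-21 (-2.88 ± 0.37, limma adjusted p = 0.00101), and Irf8, an interferon-induced transcription factor, at 278 and 419 against 65.4 and 85.9 TPM (-2.17 ± 0.44, limma adjusted p = 0.0317). Il17f and Batf were the other 2. Il12rb2 overlapped between the same groups, with a log2 change of 0.26 (limma adjusted p = 0.767).

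Against IL-12 alone, GFPneg cells had 9 of the 38 genes higher and 9 lower with IL-1b+IL-6+IL-23 (median 0.13, against -0.09), and 8 higher and 15 lower with TGFb+IL-6 (median -0.38, against -0.33). Against IL-12+IL-21 the counts were 8 and 8 (median -0.03, against 0.00) and 7 and 13 (median -0.42, against -0.21). Of all genes 7.01%, 20.9%, 3.41% and 6.82% passed in these comparisons. In each of these 4 comparisons Ifng was lower or listed at 0 and Il17a and Il17f were higher. The TGFb+IL-6 culture was given no IL-23. Its GFPneg cells had 7 of 9 IL-12 response genes lower and 0 higher against either culture with IL-12. Of 8 IL-23 response genes tested, 5 were higher and 0 lower against IL-12+IL-21, and 5 higher and 1 lower against IL-12. Between the GFPpos and GFPneg cells of a culture, 2 of the 38 genes passed in the IL-1b+IL-6+IL-23 culture (against 0.427% of all genes) and 0 in each of the other cultures. Il17a (2.97 ± 0.33, limma adjusted p = 6.49e-04) and Il17f (2.05 ± 0.30, limma adjusted p = 0.00518) were the 2, both higher in GFPpos cells. With TGFb+IL-6 their differences were 1.87 ± 0.49 and 1.21 ± 0.45 (limma adjusted p = 0.116 and 0.211), and with IL-12+IL-21 0.27 ± 0.37 and 1.49 ± 0.34 (0.752 and 0.0841). Il22 had 1.54 ± 0.55 with IL-1b+IL-6+IL-23, 2.73 ± 0.82 with TGFb+IL-6 and 2.27 ± 0.61 with IL-12+IL-21, which did not pass (limma adjusted p = 0.404, 0.156 and 0.115). The GFP difference was compared between IL-1b+IL-6+IL-23 and IL-12+IL-21 for all 9592 genes. It passed for 0 of them (limma), so none of these genes passed there. How their differences with TGFb+IL-6 compared with those of the other cultures is not reported here. The comparisons share control groups, so their values are given side by side.

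Genes whose levels were most like each member over the 16 libraries were ranked by Pearson r of log2(TPM + 1), as a description of points that share libraries, cultures and gates. Il12rb2 was closest to Cnn3 (r = 0.977), Gbp2 (0.967) and Gm12250 (0.964), and Itgb2 (0.975) and Dok2 (0.931) were among the genes closest to Il12rb1. The genes closest to Il23r were Slc48a1 (0.97), Smox (0.935) and Tmem167b (0.933), and those closest to the reporter row were 4932438A13Rik (0.886), Pde4b (0.883) and G6pc3 (0.882). Tyk2 was closest to Dnajc5 (0.966), Trp53bp1 (0.954) and Syf2 (0.938), and Jak2 to Nr2c1 (0.87), Vmp1 (0.861) and Bcl2l15 (0.86). Among the members, Il23r and the reporter row had r = 0.829, Il23r and Il12rb2 r = 0.22, and Il12rb1 and Il12rb2 r = 0.381.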

How the data were processed

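The authors deposited 1 table of TPM values for 21 libraries, and TPM add up to the same total in each, so the reads behind a value are unknown and no counting interval is given. Tools named in the submitters' processing notes are RSEM 1.2.31, Bowtie2 2.2.9 and Trimmomatic 0.32, with the build GRCm38; annotation, settings and strand use are not given in the sources used here. Columns were tied to samples by name, and 0 columns lacked a sample. The libraries and rows were taken as described above. The members and gene lists were chosen with earlier results of these data known.

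Genes that reached a TPM of 1 in at least 3 of the 16 libraries were tested with limma 3.58.1 (R 4.3.3), fitting a mean per group to log2(TPM + 1), with no replicate block, and empirical Bayes with a trend. All 7 groups shared 1 estimate of the spread, and p-values were adjusted by Benjamini-Hochberg over the 9592 genes within each of 12 comparisons. Statistics are printed for members with an adjusted p under 0.05 or a log2 change of at least 1 in either direction, and other values only where a sentence compares them. Pathway genes with statistics are among the 4 called genes with the smallest p in a comparison; others are named by their levels or counts, some after their values were seen. Some genes that these rules would name are not reported here. The script was tested on simulated data. Alternatives were all 21 libraries, pseudocounts of 0.1 and 5, no filter, median-ratio scaling, only the libraries compared, a replicate block, and each library left out in turn. Promoters came from RefSeq (GRCm38.p6) and positions from GENCODE M21.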

Additional observations from a re-analysis of the deposited data

Results flagged for a closer look

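Signal of the members was also present in libraries left out for having few genes. In GFPpos cells with TGFb+IL-6, replicate 3 had 1157 genes at or above 1 TPM and listed Il23r at 146.48 TPM and Il12rb2 at 196.78 TPM, with Il12rb1, Jak2, Tyk2 and the reporter row at 0. The highest GFPneg values among the used libraries of that culture were 0.87 TPM for Il23r and 9.82 TPM for Il12rb2. TPM add up to the same total in each library, so levels in a library with few genes cannot be set directly against these. Among genes at or above 1 TPM, Il23r in replicate 3 stood at percentile 32.8, against 30.9 in the used GFPpos library. Il12rb2 stood at percentile 43.9, against 66.1 in the used GFPpos library. These percentiles are over 1157 genes at or above 1 TPM in replicate 3 and 8715 in the used library. They too cannot be set directly against each other. Replicate 2, with 5608 such genes, had 1.69 TPM of Il23r, also above 0.87 TPM, and the used GFPpos library of that culture had 3.57 TPM. No group had more than 3 used libraries, so no test for a single outlying library was made.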

How the results depend on the processing

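Of the settings tried, the use of all 21 libraries changed most. Of 30 member results it left 7 on the same side of the threshold and in the same direction, 17 lost their call, 1 gained one and 5 turned direction. The turned values were -0.136 for Jak2 and -0.046 for Tyk2 between the gates with TGFb+IL-6, and for Il12rb1 -1.11 (GFPpos, TGFb+IL-6 minus IL-1b+IL-6+IL-23), 0.015 (GFPneg, IL-1b+IL-6+IL-23 minus IL-12) and -0.75 (GFPneg, TGFb+IL-6 minus IL-1b+IL-6+IL-23). For GFPpos TGFb+IL-6 minus IL-12+IL-21 both calls were lost and 1 member, the reporter row, was newly called. Members called fell to 0 in the other 2 GFPpos comparisons between cultures and in 5 of the 6 GFPneg ones, the remaining one having 0 in both. Il12rb2 then made up 56.1% of Il12rb2 and Il23r in GFPpos cells with TGFb+IL-6. The cause of these changes was not tested.

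Other settings moved fewer results, and the cause was not tested. A pseudocount of 0.1 left 1 member called in each GFPpos comparison of TGFb+IL-6. In GFPneg TGFb+IL-6 minus IL-12+IL-21, 1 member was called, against 3, with either other pseudocount and without the filter; with only the libraries compared it was also 1, but Il23r and the reporter row then failed the filter and were not tested. Median-ratio scaling called 1 member in GFPneg IL-12+IL-21 minus IL-12, and it turned no direction of the 30 results. Leaving out 1 library gave 0 to 1 there, 1 to 2 for GFPneg TGFb+IL-6 minus IL-12+IL-21 and 2 to 3 for GFPneg TGFb+IL-6 minus IL-1b+IL-6+IL-23; over 157 such results, 127 kept their call, 29 lost it, 1 gained one and 0 turned direction. An alternative that also leaves out libraries rich in ribosomal protein transcripts selects the same 16 libraries and was not run.

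The replicate block lost 1 call of 30, Jak2 averaged over the cultures (0.57, limma adjusted p = 0.0582). Deviations of same-numbered libraries correlated at -0.086 to 0.265 (median 0.043, 31 pairs), with 8 over 0.1, and those of libraries with different numbers at -0.218 to 0.111 (median -0.027, 62 pairs), with 2 over 0.1. Since not every pair was over 0.1 and no label ties the numbers, they were not taken as pairs; this does not show that same-numbered libraries share nothing.

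Genes called overall were 0 to 53 per comparison with all 21 libraries, against 15 to 2000. Between the gates, other settings gave 9 to 51 against 15 with IL-12+IL-21, 18 to 51 against 41 for IL-1b+IL-6+IL-23, and 19 to 250 against 31 with TGFb+IL-6. They gave 44 to 135 against 73 for GFPneg IL-12+IL-21 minus IL-12, 412 against 672 for IL-1b+IL-6+IL-23 minus IL-12 and 209 against 327 for IL-1b+IL-6+IL-23 minus IL-12+IL-21, the last 2 with only the libraries compared. The average over cultures called 337 after median-ratio scaling, against 709. Without scaling the median gene moved by -0.33 to 0.37 per comparison, with it by -0.01 to 0.02; of the genes called in GFPneg TGFb+IL-6 minus IL-12, 488 of 2000 were higher before it and 926 of 1671 after it. Depth is unknown, so how many reads lie behind the low values of Il23r, Jak2 and Tyk2 cannot be given.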

Other observations

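Some values belong to no comparison above. Csf2, which encodes GM-CSF and is an IL-23 response gene, was listed at 0 in all 16 used libraries, including the GFPpos cells with IL-1b+IL-6+IL-23, where Il17f reached 9681 TPM. A 0 in this table can be a failed estimate. Eomes, a T-box factor, did not exceed 0.63 TPM, and Il6st, the signalling chain of the IL-6 receptor, did not exceed 1.29 TPM in any used library, also in the cultures given IL-6. Il12rb2 stood at 234.84 TPM in the left-out replicate 3 of the GFPneg cells with IL-12+IL-21, above the 115.86 and 183.66 TPM of the used libraries. That library had only 1331 genes at or above 1 TPM. Among them Il12rb2 stood at percentile 64.8, against 91.4 and 93.4 in the used libraries. The latter percentiles are over 8214 and 8353 genes, so they cannot be set directly against the former. Il12rb2 was listed at 0 in the left-out replicate 1 of the IL-12 cells.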
